A study of Homo sapiens with 6 samples.

Results

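The 41 genes described here encode complement components and regulators, acute phase proteins of the liver, and the IL-6 receptor and STAT3 axis that drives the acute phase response. They were listed by gene symbol and matched to Ensembl identifiers, and all 41 of 41 were found once among the 57500 genes counted. RNA was sequenced from HepG2 cells, an established human hepatocarcinoma line, which were wild type in both groups and had received glycine (10 mM) or vehicle for 24 h. Each group held 3 libraries. HepG2 comes from 1 tumour and is grown without the Kupffer, endothelial and stellate cells that surround hepatocytes in liver.

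The complement system is a cascade of plasma proteases that ends in opsonins, in small inflammatory peptides and in a pore in the membrane of the target. Hepatocytes make most of its soluble components. During inflammation, interleukin-6 binds its receptor and the shared signalling chain encoded by IL6ST, and Janus kinases phosphorylate STAT3. STAT3, together with C/EBP factors and NF-kB, then raises the transcription of the inducible acute phase proteins in the hepatocyte. SOCS3 is itself a STAT3 target and closes the loop by inhibiting that receptor complex.

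Library totals ranged from 31795489 to 58815986 counts, and 1 count corresponded to between 0.017 and 0.0314 CPM (counts scaled to a common library size). The hepatocyte identity of the line was visible in all 10 of 10 hepatocyte markers. Their summed level was 26150 to 30810 CPM with vehicle and 22390 to 26030 CPM with glycine. Of the 10, 0 rose and 3 fell, or 30% against 13.3% of all genes tested (edgeR, adjusted p under 0.05). Among 8 leukocyte and macrophage markers, the pan-leukocyte gene PTPRC had 9 counts in all 6 libraries together, and MARCO and CD3E had 0. The summed level of that list was 2128 to 2331 CPM with vehicle and 1699 to 1858 CPM with glycine, nearly all of it LYZ, while CD68 and CD14 were higher with glycine. The 8 endothelial and stellate markers summed to 33.0 to 36.6 CPM with vehicle and to 25.9 to 26.9 CPM with glycine. Most of that sum was PDGFRB (26.9 CPM with vehicle), which fell by 0.66 on the log2 scale. VWF fell from 0.584 to 0.258 CPM, while COL1A1 rose from 2.15 to 4.39 CPM (edgeR adjusted p = 0.00059). The part of these shifts in the results below was not tested. In bulk RNA of a cell line, fewer cells that express a gene and less of its RNA per cell cannot be told apart. The p-values measure the spread between these libraries, which the labels do not tie to separate cultures.

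Glycine changed 12 of the 37 complement, acute phase and IL-6 axis genes that could be tested, or 32.4%, against 13.3% of the 15492 genes tested in all (edgeR quasi-likelihood test, adjusted p under 0.05). SOCS3, ORM1, HP, C8G, ORM2 and C5 rose, and C6, A2M, MASP1, ITIH1, SAA4 and C4BPB fell. The 6 rises compare with 6.71% of all genes tested that rose, and the 6 falls with 6.54% that fell. The called rises ranged from 0.35 to 1.26 on the log2 scale and the called falls from -0.36 to -0.95. The changes went in both directions, and the median log2 change over the tested members was 0.00, as it was over all genes tested. Of the 37 tested members, 18 had a log2 change below 0, against 49.2% of all genes tested. The median size of the change regardless of direction was 0.20 in the members and 0.14 over all genes tested. The tested members had a median level of 42.4 CPM, against 17.8 CPM for all genes tested. What this higher level added to the share of calls was not tested.

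**Figure D1:**
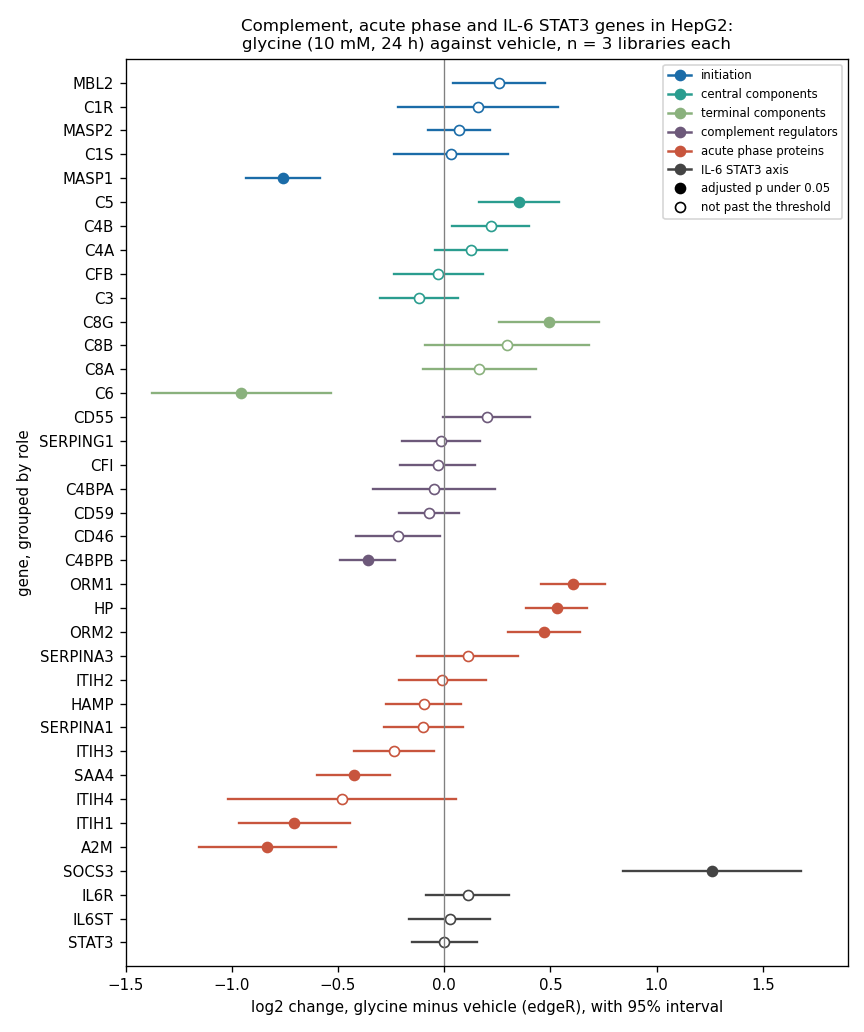
Log2 change (x axis, glycine minus vehicle) of each of the 37 tested genes (y axis, grouped and coloured by role), with its 95% interval from edgeR, n = 3 libraries per group. Filled points mark the 12 genes past the threshold, 6 on each side of 0, with SOCS3 at 1.26 farthest to the right and C6 at -0.95 farthest to the left.

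In 14 of 37 tested members (37.8%) the glycine and vehicle libraries did not overlap, against 31.6% of all genes tested. They were 7 genes higher with glycine, against 17.2% of all genes tested, and 7 lower, against 14.4%. These were the 12 called genes together with MBL2 and ITIH4. Of the 25 tested members that did not pass the threshold, 23 had a 95% interval that lay within a 1.5-fold change in both directions, and the other two were ITIH4 and C8B. All 37 tested members had at least 14 counts in every library. LBP (19 counts over all libraries), SAA2 (4 counts), SAA1 (2 counts) and C9 (0 counts) did not pass the filter on low counts.

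The levels of the members spanned several orders of magnitude. Per kilobase of exon, SERPINA1 had the highest level with 1156 CPM per kb under vehicle and 1080 under glycine, followed by A2M (612 and 343), ITIH2 (431 and 429) and C3 (410 and 378). With vehicle, these 4 genes made up 88.2% of the summed CPM of all the members, and 85.6% with glycine. That sum was 14870 to 17140 CPM in the vehicle libraries and 13690 to 14640 CPM in the glycine libraries, without overlap. The mean difference of the sum was -2252 CPM, of which A2M alone accounted for -1713 CPM. At the other end, SOCS3 rose from a mean of only 0.294 to 0.702 CPM per kb and C6 fell from 0.422 to 0.22 CPM per kb.

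**Figure D2:**
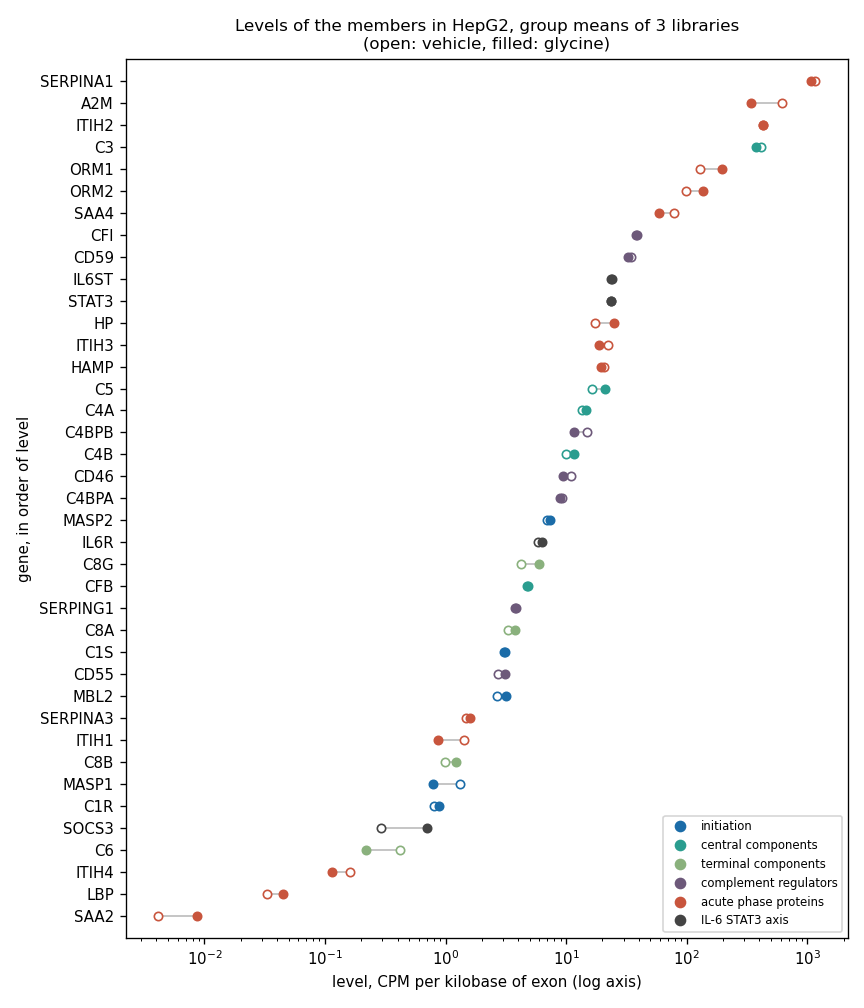
Level of each member (y axis, in order of level, coloured by role) in CPM per kilobase of exon on a log axis, as means of 3 vehicle (open) and 3 glycine libraries (filled). SAA1, without a count in the vehicle libraries, and C9, without a count in any library, are not shown. SERPINA1, A2M, ITIH2 and C3 lie apart from the others at the top, with 343 to 1156 CPM per kb, and the gap between the symbols is widest, among the 37 tested genes, for SOCS3 and C6.

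Among the genes listed as acute phase proteins, 3 rose and 3 fell of 12 that could be tested out of 15. This was 50%, against 13.3% of all genes tested. The list is not limited to genes that are induced in the acute phase, and SAA4, for example, is constitutive. A fall in a listed gene is therefore not by itself a reversal of the acute phase response. The rises were in haptoglobin and in both orosomucoid genes. HP (chr16:72054592-72061055) encodes haptoglobin, which captures free haemoglobin in plasma. Its level was 95.3, 86.6 and 99.2 CPM in the vehicle libraries and 131, 137 and 137 CPM in the glycine libraries. The groups were well separated, with the lowest glycine library above the highest vehicle library. HP rose by 0.53 ± 0.0661 (SE) on the log2 scale, a 1.44-fold change (95% interval 0.39 to 0.67, edgeR adjusted p = 0.00016). Of the stretches of 75 bases of its transcript, 19.5% also occur in the neighbouring paralogue HPR.

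ORM1 and ORM2 encode orosomucoid, or alpha-1-acid glycoprotein, an acute phase lipocalin that binds basic drugs in plasma. They lie 3.4 kb apart on chromosome 9 (ORM1 at chr9:114323056-114326475, ORM2 at chr9:114329869-114333252). ORM1 was at 111, 117 and 117 CPM with vehicle and at 171, 192 and 162 CPM with glycine, a rise of 0.61 ± 0.0707 (SE) on the log2 scale or 1.52-fold (edgeR adjusted p = 9.2e-05). ORM2 was at 74.2, 70.9 and 78.5 CPM with vehicle and at 98.5, 115 and 95.4 CPM with glycine, a rise of 0.47 ± 0.0780 or 1.38-fold (edgeR adjusted p = 0.0015). For both genes every glycine library lay above every vehicle library, and glycine replicate 2 was the highest. The copies share sequence: 39.4% of the 75-base stretches of the ORM1 transcript are found unchanged in ORM2, and 41.8% the other way, so reads can be assigned to either. Summed to 1 locus, they went from 190 ± 5.25 to 278 ± 25.9 CPM (SD, n = 3), a change of 0.55 ± 0.073 (edgeR adjusted p = 0.00026). The sum, which does not depend on how reads were divided between the copies, thus rose as well.

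The falls were in A2M, ITIH1 and SAA4. A2M (chr12:9067664-9116229), the broad protease inhibitor alpha-2-macroglobulin, was at 4567, 2901 and 4246 CPM with vehicle and at 2070, 1947 and 2558 CPM with glycine. The vehicle libraries varied widely, vehicle replicate 2 being the lowest, yet it remained above the highest glycine library. The mean went from 3905 ± 884 to 2192 ± 323 CPM (SD, n = 3), and A2M fell by 0.83 on the log2 scale (SE 0.149, 95% interval -1.16 to -0.51, edgeR adjusted p = 0.0026). In absolute level this was the largest fall among the members, a change of -43.9%.

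ITIH1 (chr3:52777592-52792068) encodes a heavy chain of the inter-alpha-trypsin inhibitors, which stabilise the hyaluronan matrix. It measured 6.68, 6.02 and 6.82 CPM with vehicle and 3.60, 4.53 and 3.72 CPM with glycine, groups that were clearly apart. It fell by 0.71 on the log2 scale (SE 0.121, edgeR adjusted p = 0.0019). Its neighbour ITIH3, 2.7 kb away, went from 131 ± 17.3 to 111 ± 5.21 CPM (SD, n = 3), with a log2 change of -0.24 (95% interval -0.42 to -0.05) that did not pass the threshold (edgeR adjusted p = 0.093). ITIH3 passed it without vehicle replicate 2 (edgeR adjusted p = 0.0069). ITIH4, a further 4.0 kb away, had few counts, at 0.889 and 0.623 CPM, with a log2 change of -0.48 (95% interval -1.02 to 0.06). Its glycine libraries all lay below the vehicle libraries, but 74.4% of its exon length is shared with other genes. How shared reads were handled is not known, so the level of ITIH4 is uncertain as well as its change. ITIH2, the most abundant heavy chain gene, lies on another chromosome and had 1456 ± 172 CPM with vehicle and 1448 ± 107 CPM with glycine, a log2 change of -0.01 (95% interval -0.21 to 0.20).

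SAA4 (chr11:18231349-18236893) encodes the constitutive serum amyloid A of high-density lipoprotein. Its level was 51.9, 56.1 and 63.2 CPM with vehicle and 40.3, 41.6 and 45.5 CPM with glycine. The ranges were close but did not touch. SAA4 fell by 0.43 on the log2 scale (SE 0.0803, edgeR adjusted p = 0.0037). Of its exon length, 65.5% is shared with the readthrough gene SAA2-SAA4, which had 0 counts in all libraries. How reads that overlap both genes were handled is not known, so the 0 does not show that the SAA4 counts were unaffected. The inducible serum amyloids, SAA1 and SAA2, are among the most strongly induced genes of the acute phase in liver. Here they had 2 and 4 counts in all, with single counts at most in any vehicle library, so 3 counts (0.0510 to 0.0943 CPM) bound what could be seen. LBP, which presents lipopolysaccharide to CD14, had at most 7 counts in a library.

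SERPINA1, the elastase inhibitor alpha-1-antitrypsin and the most abundant member per kilobase, measured 5331, 5698 and 5969 CPM with vehicle and 5398, 5281 and 5198 CPM with glycine. The ranges overlapped, and the log2 change of -0.10 had a 95% interval from -0.28 to 0.09 (edgeR adjusted p = 0.50). SERPINA3, or alpha-1-antichymotrypsin, was at 7.46 and 8.05 CPM (log2 change 0.11, 95% interval -0.13 to 0.35). Of its exon length, 31.7% is shared with another gene. HAMP encodes the iron hormone hepcidin, a direct STAT3 target in hepatocytes. It was at 62.5 and 58.4 CPM, with a log2 change of -0.10 (95% interval -0.27 to 0.08, edgeR adjusted p = 0.50).

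**Figure D3:**
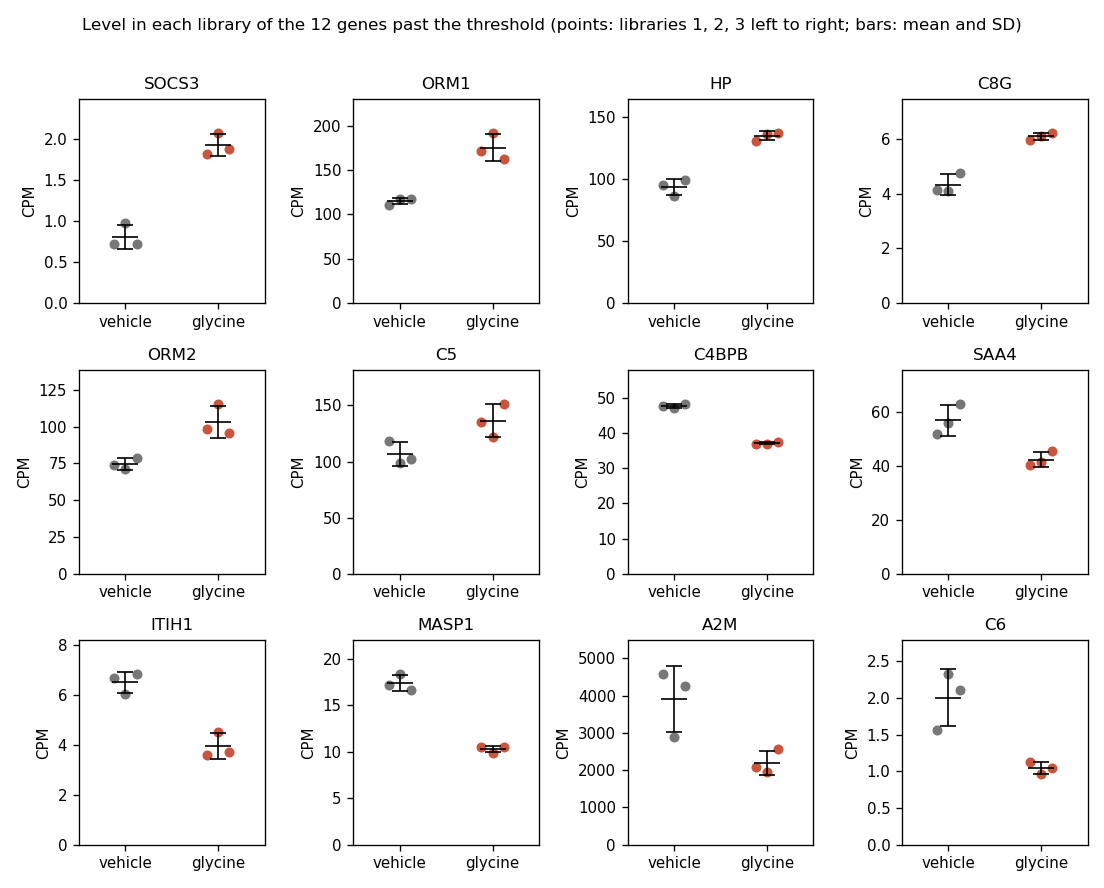
Level in CPM (y axis, from 0) of each of the 12 genes past the threshold in the 3 vehicle (grey) and 3 glycine libraries (red), with the mean and SD as bars. In every panel the groups are apart, with the 6 rises (SOCS3, ORM1, HP, C8G, ORM2, C5) first and the 6 falls (C4BPB, SAA4, ITIH1, MASP1, A2M, C6) after them.

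Of the 22 complement genes, 21 could be tested, and 2 rose and 3 fell, or 23.8% against 13.3% of all genes tested. In the initiating steps, where a recognition molecule activates its proteases, MASP1 fell and the other 4 genes did not pass the threshold. MASP1 (chr3:187217285-187292022) gives the protease that starts the lectin pathway by activating MASP2, and all transcripts of the gene were counted together. It was at 17.2, 18.3 and 16.6 CPM with vehicle and at 10.5, 9.86 and 10.5 CPM with glycine, tight within each group and far apart between them. It fell by 0.76 on the log2 scale (SE 0.0801, 95% interval -0.93 to -0.59, edgeR adjusted p = 4.1e-05), the smallest adjusted p among the members.

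MASP2, which cleaves C4 and C2 and had the highest level per kilobase among the initiating genes, was at 30.2, 28.1 and 31.0 CPM with vehicle and at 31.7, 30.9 and 31.2 CPM with glycine. The ranges overlapped, with a log2 change of 0.07 (95% interval -0.07 to 0.21, edgeR adjusted p = 0.55). MBL2, the mannose-binding lectin that carries these proteases, measured 9.85, 9.78 and 8.79 CPM with vehicle and 11.8, 9.98 and 12.3 CPM with glycine. Every glycine library was higher, by a narrow margin, and the log2 change of 0.26 (95% interval 0.04 to 0.47) did not pass the threshold (edgeR adjusted p = 0.115). It passed only without glycine replicate 2 (edgeR adjusted p = 0.049). For the classical pathway proteases, the log2 change was 0.16 for C1R (95% interval -0.22 to 0.54) and 0.03 for C1S (95% interval -0.23 to 0.30).

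In the central steps, C5 rose while C3, C4A, C4B and CFB did not pass the threshold. C5 (chr9:120952335-121050276) is cleaved to the chemoattractant C5a and to the fragment that nucleates the pore. It was at 119, 98.7 and 103 CPM with vehicle and at 135, 122 and 152 CPM with glycine. The gap was narrow, since the lowest glycine library was just above the highest vehicle library. The rise was 0.35 ± 0.0877 (SE) on the log2 scale or 1.28-fold (edgeR adjusted p = 0.018). This call depended on single libraries: the edgeR adjusted p was 0.0542 without vehicle replicate 2, 0.0508 without glycine replicate 1 and 0.0982 without glycine replicate 3.

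C3, the hub of all activation routes and the most abundant complement gene, measured 3650, 3183 and 3424 CPM with vehicle and 3208, 3016 and 3223 CPM with glycine. The ranges overlapped, with a log2 change of -0.12 (95% interval -0.30 to 0.06, edgeR adjusted p = 0.40). C4A and C4B encode the isotypes of C4, which forms part of the classical and lectin convertase. Their log2 changes were 0.13 (95% interval -0.04 to 0.30) and 0.22 (95% interval 0.04 to 0.40), neither past the threshold. C4B passed it without vehicle replicate 3 (edgeR adjusted p = 0.026). The copies cannot be separated well by short reads, since 90.5% of the 75-base stretches of the C4A transcript are also in C4B. Their sum went from 168 ± 14.6 to 188 ± 15.7 CPM (SD, n = 3), with a log2 change of 0.17 (95% interval -0.01 to 0.34, edgeR adjusted p = 0.20). CFB, the protease of the alternative pathway, was at 24.1 and 23.7 CPM (log2 change -0.03, 95% interval -0.24 to 0.18), with 45.5% of its exon length shared with other genes, C2 among them.

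The terminal components, which assemble the membrane attack complex, moved in both directions, with C8G up and C6 down. C8G (chr9:136945246-136946974), the lipocalin-like gamma chain of C8, was at 4.11, 4.10 and 4.76 CPM with vehicle and at 5.95, 6.10 and 6.21 CPM with glycine, groups without overlap. It rose by 0.49 ± 0.109 (SE) on the log2 scale or 1.41-fold (edgeR adjusted p = 0.0096). The other chains of the same protein, C8A and C8B, had log2 changes of 0.17 (95% interval -0.10 to 0.43) and 0.29 (95% interval -0.09 to 0.68).

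C6 (chr5:41142234-41261438) joins the complex directly after the C5 fragment. It was low, with 348 counts over all libraries, at 1.57, 2.32 and 2.11 CPM with vehicle and at 1.13, 0.957 and 1.04 CPM with glycine. Every glycine library was below every vehicle library. C6 fell by 0.95 on the log2 scale (SE 0.196, 95% interval -1.38 to -0.53, edgeR adjusted p = 0.0064), the largest fall among the members by fold. C9, the component that polymerises into the pore, had 0 counts in every library.

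Among the regulators, which protect host surfaces and dismantle the convertases, C4BPB fell and the other 6 did not pass the threshold. C4BPB (chr1:207088842-207099993) encodes the beta chain of the C4b-binding protein, through which it holds the anticoagulant protein S. Its level was 47.5, 47.1 and 48.2 CPM with vehicle and 36.9, 36.9 and 37.5 CPM with glycine, with little spread inside either group. It fell by 0.36 on the log2 scale (SE 0.0604, edgeR adjusted p = 0.0016). C4BPA, which encodes the alpha chain 4.3 kb away, was at 22.4 ± 4.85 and 21.6 ± 2.52 CPM (SD, n = 3), with a log2 change of -0.05 (95% interval -0.34 to 0.24).

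CFI, the protease that inactivates C3b and C4b and the regulator with the highest level per kilobase, measured 161, 130 and 157 CPM with vehicle and 141, 142 and 156 CPM with glycine. The ranges overlapped, with a log2 change of -0.03 (95% interval -0.21 to 0.15, edgeR adjusted p = 0.86). For the membrane-bound regulators the log2 change was -0.22 for CD46 (95% interval -0.42 to -0.02), 0.20 for CD55 (95% interval -0.00 to 0.41) and -0.07 for CD59 (95% interval -0.21 to 0.07), with edgeR adjusted p of 0.144, 0.191 and 0.526. SERPING1, the C1 inhibitor, was at 13.7 and 13.6 CPM (log2 change -0.01, 95% interval -0.20 to 0.17).

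In the IL-6 and STAT3 axis, SOCS3 rose and the signalling chain above it did not pass the threshold. SOCS3 (chr17:78356778-78360077) was at 0.714, 0.975 and 0.723 CPM with vehicle and at 1.82, 2.07 and 1.87 CPM with glycine, from 343 counts over all libraries. The groups were widely separated, and the rise of 1.26 ± 0.194 (SE) on the log2 scale, 2.40-fold, was the largest change in either direction among the members (95% interval 0.84 to 1.68, edgeR adjusted p = 0.00085).

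STAT3 was at 215, 218 and 194 CPM with vehicle and at 220, 194 and 213 CPM with glycine, and its group means were both 209 CPM. The log2 change was 0.00 (95% interval -0.15 to 0.15). IL6ST, the shared receptor chain, was at 243, 221 and 193 CPM with vehicle and at 235, 201 and 233 CPM with glycine, again with overlap and a log2 change of 0.03 (95% interval -0.16 to 0.21). IL6R, the ligand-binding chain, went from 37.9 to 40.8 CPM (log2 change 0.11, 95% interval -0.09 to 0.31). Transcript levels do not report phosphorylation of STAT3.

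For 6 pairs of genes whose products work together or that are neighbours, chosen after their values were seen, the ratio was computed per library on the log2 scale, as a description. The MASP1 to MASP2 ratio averaged -0.78 with vehicle and -1.61 with glycine, a difference of -0.83. The ITIH1 to ITIH3 ratio differed by -0.50 and the ORM1 to ORM2 ratio by 0.14, and in these 3 pairs the groups did not overlap. The ratios of C4BPB to C4BPA (-0.33), C8G to C8A (0.32) and C4A to C4B (-0.09) overlapped between the groups. With 3 libraries against 3, an exact two-sided permutation test cannot give a p below 0.1, which the first 3 pairs reached, and the adjusted value was 0.2 for each of the 6 pairs. The ORM1 to ORM2 and C4A to C4B ratios also depend on how shared reads were assigned.

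Promoter sequences were set beside these changes because the acute phase response acts through STAT3, C/EBP and NF-kB sites. RefSeq windows (GRCh38.p14) from 250 bases before to 50 bases after a start site were at hand for 28 of the 41 members. Both strands were searched for TTCNNNGAA (STAT), TTGCNNAA (C/EBP), GGGA, any base, TT, any base, CC (NF-kB), GTTAAT, any base, ATTAAC (HNF1) and CTGGGAA (the IL-6 type 2 element), where a STAT match can overlap an IL-6 type 2 match. The 5 windows below are given 5′ to 3′ on the gene's strand with matches in capitals: ORM1 (chr9:114322848-114323147, plus strand), which rose, SAA4 (chr11:18236753-18237052, minus strand), C4BPB (chr1:207088989-207089288, plus strand) and ITIH1 (chr3:52779671-52779970, plus strand), which fell, and HAMP (chr19:35282278-35282577, plus strand), which did not pass the threshold. The C4BPB, ITIH1 and HAMP windows surround a start site inside the gene as it was counted. C4BPB and ITIH1 have 3 windows each, of which the one printed was chosen for its match, and the window nearest the start of the counted gene held no match for either (chr1:207088610-207088909 and chr3:52778236-52778535).
ORM1: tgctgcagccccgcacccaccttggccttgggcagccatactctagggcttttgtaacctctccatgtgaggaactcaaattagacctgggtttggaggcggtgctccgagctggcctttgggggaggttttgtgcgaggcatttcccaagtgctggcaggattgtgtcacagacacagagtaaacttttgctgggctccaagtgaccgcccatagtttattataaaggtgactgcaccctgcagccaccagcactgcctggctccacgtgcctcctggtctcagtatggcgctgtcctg
SAA4: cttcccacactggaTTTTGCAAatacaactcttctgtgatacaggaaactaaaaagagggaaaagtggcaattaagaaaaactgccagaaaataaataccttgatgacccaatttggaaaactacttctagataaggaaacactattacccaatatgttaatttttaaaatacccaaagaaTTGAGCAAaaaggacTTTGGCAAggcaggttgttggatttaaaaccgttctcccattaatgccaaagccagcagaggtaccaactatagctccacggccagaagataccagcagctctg
C4BPB: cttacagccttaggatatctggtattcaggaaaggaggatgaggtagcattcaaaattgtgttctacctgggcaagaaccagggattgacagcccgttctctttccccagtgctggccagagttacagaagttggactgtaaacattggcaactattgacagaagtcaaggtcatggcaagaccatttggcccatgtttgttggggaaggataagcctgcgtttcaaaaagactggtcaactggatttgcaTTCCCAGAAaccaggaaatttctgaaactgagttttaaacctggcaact
ITIH1: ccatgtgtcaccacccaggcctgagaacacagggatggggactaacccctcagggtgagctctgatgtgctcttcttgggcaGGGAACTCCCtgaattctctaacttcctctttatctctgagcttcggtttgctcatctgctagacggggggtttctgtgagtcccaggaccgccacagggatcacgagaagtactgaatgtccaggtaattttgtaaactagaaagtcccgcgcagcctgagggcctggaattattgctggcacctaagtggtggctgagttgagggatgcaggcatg
HAMP: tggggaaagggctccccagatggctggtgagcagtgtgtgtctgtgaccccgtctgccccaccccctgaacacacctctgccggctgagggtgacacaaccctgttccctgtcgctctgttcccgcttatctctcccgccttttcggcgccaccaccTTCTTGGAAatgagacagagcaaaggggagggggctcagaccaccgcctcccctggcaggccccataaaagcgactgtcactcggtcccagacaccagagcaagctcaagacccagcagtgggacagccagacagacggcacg

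The ORM1 window held none of the 5 motifs, while that of SAA4 held 3 C/EBP matches. The printed C4BPB window held 1 STAT match overlapping an IL-6 type 2 match just after its start site, HAMP held 1 STAT match and ITIH1 held 1 NF-kB match. A STAT match was found for 8 of 28 members with a window (28.6%), against 9.38% of 27305 genes with a window. Counted by window, since a gene can have several, it was 10 of 42 (23.8%) against 7.66%. These 8 were C1R, C4BPB, CD59, CFB, HAMP, ITIH4, MASP2 and MBL2, of which C4BPB alone passed the threshold, as a fall. The called members HP, ORM2, A2M and C8G had no window and could not be searched. Neither SOCS3 window (chr17:78359618-78359917 and chr17:78360876-78361175, minus strand) contains the start of the gene as counted, at chr17:78360077. The promoter at that start was therefore not searched. A C/EBP match was found for 5 members (17.9% against 12.7% of all), an NF-kB match for 1 (3.57% against 1.71%), an HNF1 match for 0 and an IL-6 type 2 match for 4 (14.3% against 13.1%), SOCS3 among them. A match is a stretch of letters and not a bound site.

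Related genes outside the 41 were read from the same fit. Of 29 other complement genes, 10 could be tested, and 1 rose and 2 fell. The share was 30%, against 13.3% of all genes tested, and the median log2 change was -0.04. C7, which follows C6 in the membrane attack complex, was at 2.85 ± 0.399 CPM with vehicle and at 0.876 ± 0.186 CPM with glycine (SD, n = 3). It fell with a log2 change of -1.70 (SE 0.193, edgeR adjusted p = 7.9e-05). CPN1, the catalytic subunit of the carboxypeptidase that inactivates C5a and C3a, rose by 0.27 (edgeR adjusted p = 0.045), and C1RL, a C1R-like protease, fell by 0.20 (edgeR adjusted p = 0.049). With any 1 library left out other than vehicle replicate 1, CPN1 missed the threshold (edgeR adjusted p of 0.0618 to 0.162), and with any left out other than vehicle replicate 2, C1RL missed it (0.0792 to 0.14). The list had 1 call when any of the 3 glycine libraries was left out.

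Of 15 other positive acute phase genes, 11 could be tested, and 3 rose and 3 fell. This was 54.5%, against 13.3% of all genes tested, with a median log2 change of -0.01. CP, which encodes ceruloplasmin, rose from 37.4 to 51.2 CPM (log2 change 0.45), and FGA, the fibrinogen alpha chain, from 612 to 779 CPM (0.35). SERPINF2, the plasmin inhibitor, fell from 554 to 394 CPM (-0.49) and AGT, or angiotensinogen, from 1274 to 969 CPM (-0.39). The third fall, HPX (hemopexin, which scavenges haem), was -0.28 with an edgeR adjusted p of 0.027, and it missed the threshold without vehicle replicate 1 (0.0508) or 3 (0.0815) or glycine replicate 1 (0.105) or 3 (0.0798). CRP and APCS, the pentraxins, had 0 counts in every library.

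Of 10 genes that usually decline in the acute phase, 9 could be tested, and 0 rose and 3 fell. This was 33.3%, against 13.3% of all genes tested, with a median log2 change of -0.26. SERPINA6, the corticosteroid-binding globulin, fell from 131 to 82.1 CPM (-0.68, edgeR adjusted p = 0.00018), TTR from 129 to 103 CPM (-0.32) and APOA1 from 1992 to 1660 CPM (-0.26, edgeR adjusted p = 0.048). APOA1 missed the threshold on omission of any library but vehicle replicate 2, with an edgeR adjusted p of 0.0829 to 0.168, and also under total count scaling (0.0543), upper-quartile scaling (0.0513), a filter of at least 1 CPM in 3 libraries (0.05) and the replicate block (0.0804). Without vehicle replicate 2 the list had 5 calls. ALB, TF, TTR and APOA1 are also among the hepatocyte markers above. That list likewise had 0 rises and 3 falls, with 9 of 10 log2 changes below 0 and a median of -0.27.

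Of 26 other genes of IL-6 family signalling, 23 could be tested, and 3 rose and 1 fell. The share of 17.4% was near the 13.3% of all genes tested, and the median log2 change was 0.04. IL11, a cytokine that signals through IL6ST, rose from 10.2 to 21.3 CPM (1.06, edgeR adjusted p = 3.7e-06), and SOCS2, an inhibitor of the same family as SOCS3, from 2.10 to 4.70 CPM (1.17, edgeR adjusted p = 0.00024). LIF, a cytokine of the same family, rose by 0.45 (edgeR adjusted p = 0.034), but missed the threshold without vehicle replicate 2 (0.0975) or glycine replicate 2 (0.0635) or 3 (0.16). Its receptor LIFR fell by 0.50 (edgeR adjusted p = 0.019) and missed it without vehicle replicate 1 (0.0713) or 2 (0.0537) or glycine replicate 2 (0.0767). The list had 2 calls without vehicle replicate 2 and 2 without glycine replicate 2. IL6 and OSM, the cytokines that classically induce SOCS3 in hepatocytes, had 0 counts in every library.

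Of 14 regulators that respond to IL-6 or IL-1, all were tested, and 1 rose and 2 fell. The share was 21.4%, against 13.3% of all genes tested, and the median log2 change was -0.07. Of the 14, 11 did not pass the threshold. A log2 change below 0 was found for 11 of the 14, against 49.2% of all genes tested, and 3 were above 0. NFKBIA, the inhibitor of NF-kB, fell from 163 to 109 CPM (-0.58), and IL1R1, the receptor for interleukin-1, from 73.5 to 50.9 CPM (-0.53), while MCL1, a survival factor, rose from 198 to 251 CPM (0.34).

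**Figure D4:**
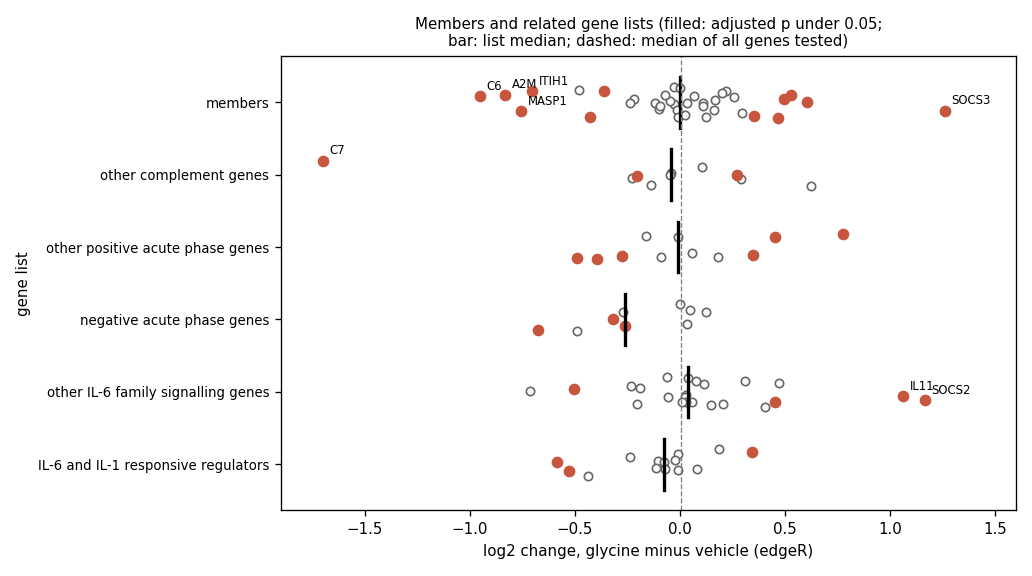
Log2 change (x axis, glycine minus vehicle, edgeR) of each tested gene in the members and in 5 related lists (y axis), with filled points for an adjusted p under 0.05, a bar at each list's median and a dashed line at the median of all genes tested. Called genes lie on both sides of 0 in every list except the negative acute phase genes, whose 3 called genes all fell and whose median was -0.26.

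The libraries of a group were not evenly placed across the members. Vehicle replicate 2 was the lowest vehicle library for 24 of the 37 tested members, against 8 for replicate 1 and 5 for replicate 3, and A2M, C1R, C1S and C4BPA were among them. Glycine replicate 3 was the highest glycine library for 23 of 37. The median coefficient of variation among the vehicle libraries was 9.86% for the tested members and 8.18% for all genes tested. Without vehicle replicate 2, 11 of the 12 called members still passed the threshold, the exception being C5.

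**Figure D5:**
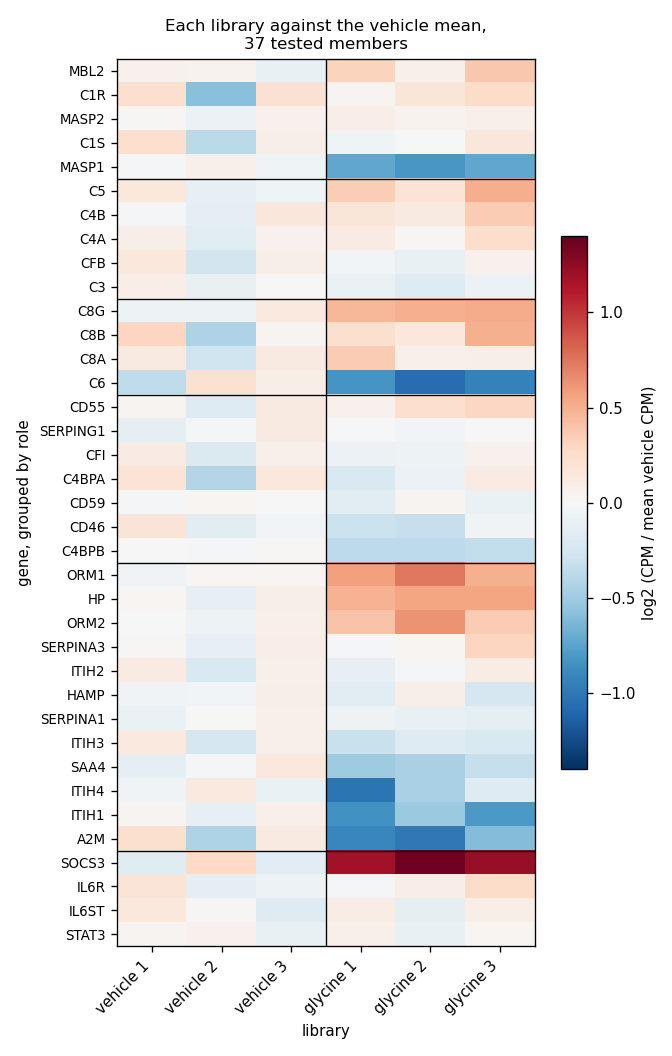
Log2 ratio of each library (x axis) to the mean of the 3 vehicle libraries for the 37 tested members (y axis, grouped by role), from blue (lower) to red (higher). The glycine columns have one colour throughout for SOCS3, ORM1, ORM2, HP, C8G and C5 (red) and for MASP1, C6, C4BPB, SAA4, ITIH1 and A2M (blue), and the column of vehicle replicate 2 is bluer than its neighbours for C1R, C1S, C8B, C4BPA and A2M.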

How the data were processed

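The 6 libraries of HepG2 RNA, 3 with vehicle and 3 with glycine (10 mM, 24 h), were assigned to groups from their labels. The deposited files hold whole-number read counts per gene for 57500 genes, not normalized. Per the submitters' processing notes, the authors used Trimmomatic 0.36, STAR 2.5.2b and featureCounts of Subread 1.5.2 with GRCh38. The strand setting and the annotation release are not given in the sources used here, so the assignment of reads between overlapping genes or near-identical copies is uncertain. In GENCODE 29, 54773 genes had the same start and end as in the files. Exon lengths and coordinates are those of the files, and transcripts for comparing gene copies came from GENCODE 29.

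Genes were filtered with the edgeR 4.0.16 expression filter (minimum count 10, minimum total 15), which left 15492, scaled by TMM factors, and tested two-sided with the quasi-likelihood test in R 4.3.3, with the group alone in the model. The Benjamini-Hochberg adjustment covered all genes tested, and the threshold was 0.05. Intervals and limits on low counts cover counting error and the spread between libraries only, and 3 counts corresponded to 0.0510 to 0.0943 CPM. Levels per kilobase are CPM divided by exon length. Ratios between genes were taken directly from the read counts of each library, with nothing added to them.

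The members and the related lists were chosen with earlier results of these data known. Values in every library are given for each called member and for the member with the highest level per kilobase in each role; of each related list, up to 5 called genes with the smallest p are named. PTPRC, MARCO, CD3E, LYZ, CD68, CD14, MBL2, CRP, APCS, FGB, FGG, IL6, OSM, HPX, PDGFRB, VWF, COL1A1, ALB and TF were named in addition, after their values were seen. A called gene of a related list, 1 in all, is not reported here.

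The alternatives were other scaling, other filters, DESeq2 1.42.0, limma 3.58.1 with voom, summed paralogues, omission of each library and a block on replicate number. On simulated data for this comparison (15474 genes, 200 changed by 1 on the log2 scale), edgeR recovered 178 (89%) with 11 false calls, and made 0 when no gene was changed. The simulation gave every gene the same spread, and every called member but SOCS3 changed by less than 1. The 89% therefore does not describe changes of that size.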

Additional observations from a re-analysis of the deposited data

How the results depend on the processing

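The labels give both groups the replicate numbers 1 to 3, but same-numbered libraries did not deviate together (correlations of -0.0577, -0.0268 and -0.00258 between their deviations from the group means), so the numbers were not read as pairs. Each library correlated best with a library of another number in the other group (0.18 to 0.214), and the labels tie no numbers to shared days. With the replicate block, 6 members rose and 6 fell as without it, the totals over all genes were 866 higher and 918 lower, and the other complement genes had 1 call in place of 3.

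The members that rose numbered 5 to 7 and those that fell 6 to 7 when single libraries were left out. None of the called members or called genes of the 5 related lists changed direction under any alternative that was run, and the cell type markers outside those lists were not rerun. Apart from C5, the called members passed the threshold under every alternative that was run. Without any filter on low counts, C4B (edgeR adjusted p = 0.0414) and ITIH3 (0.027) passed it too, and the negative acute phase genes had 5 calls in place of 3. Leaving out each library in turn gave 587 to 926 genes higher and 655 to 1010 lower over all genes, 1 to 3 calls among the other complement genes, 2 to 5 among the negative acute phase genes and 2 to 5 among the other IL-6 family genes. The lowest total of genes higher came without glycine replicate 3, and of genes lower without glycine replicate 2. The cause of these shifts was not tested. CPN1 also missed the threshold under upper-quartile scaling (edgeR adjusted p = 0.053), in DESeq2 (0.0598) and with the block (0.0536), and C1RL under total count scaling (0.0755), without the filter (0.0976) and with the block (0.0899). SAA1, SAA2 and LBP, with 2, 4 and 19 counts, entered only fits without the filter, and C9 had 0 counts.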
